A study of Homo sapiens with 24 samples.

Results

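The replication-dependent histone genes encode the bulk histone proteins that package newly copied DNA. They were taken as every feature of the expected count table named H1-1 to H1-6 or H2AC, H2BC, H3C or H4C followed by a number. This gave 66 of 60660 features: 6 linker histone H1 genes, 16 H2A genes, 17 H2B genes, 13 H3 genes and 14 H4 genes. RNA-seq was done on LNCaP and PC3, human prostate cancer cell lines with high TRPM4, a cation channel, in a study of Acetalax (oxyphenisatin acetate). LNCaP came from a lymph node metastasis and responds to androgen; PC3 came from a bone metastasis and does not. Parental cells of each line were set beside a derivative labelled CE, for chronic exposure, which was obtained by raising the concentration of Acetalax over passages until resistance was stable and then culturing without the drug for 2 weeks. The 8 groups of 3 libraries were LNCaP CE cells with 10 µM Acetalax for 4 h, LNCaP CE control, LNCaP parental with the same Acetalax exposure, LNCaP parental control, and the same 4 groups of PC3. Controls received no treatment. The triplicates are called biological, but separate cultures are not stated, and the p-values speak for the spread between these libraries alone. PC3 and LNCaP were grown in different media, so line and medium cannot be told apart.

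These genes are short, have no introns and sit in clusters, most often as H2A and H2B genes that start head to head from a shared promoter. They are switched on at the start of S phase by NPAT, a substrate of cyclin E and CDK2. Their transcripts are the only metazoan messenger RNAs that end in a conserved stem-loop instead of a poly(A) tail: stem-loop binding protein (SLBP) holds the loop, and U7 snRNP directs the cut behind it. A part of these transcripts can carry a poly(A) tail when the polymerase runs past the loop to a later poly(A) signal, which is known from differentiated cells and from cells in which the processing is impaired.

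The libraries were selected for poly(A) RNA, so every value below is the level of tailed histone transcripts, and a change in tailing, in transcription and in the number of cells in S phase cannot be told apart. In bulk RNA, fewer expressing cells and less RNA per cell cannot be told apart either. The stem-loop was searched for as 16 letters that begin with GG, end with CC and have first 6 and last 6 letters able to pair, with the conserved loop bases between, on the transcript strand of GENCODE 29 models. It was found in 28 of the 64 members that this release holds (43.8% of the genes), against 0.862% of 83054 other protein-coding transcripts. For the other 36 members the model held no match, and many such models stop at the end of the coding sequence. The sites of 4 members that the results turn on show how little the loop varies, with the stem-loop in capitals and 5 flanking bases on each side.
H2AC8: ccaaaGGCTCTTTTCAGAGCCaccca
H2BC21: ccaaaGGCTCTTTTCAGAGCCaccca
H2BC5: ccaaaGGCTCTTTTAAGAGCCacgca
H4C8: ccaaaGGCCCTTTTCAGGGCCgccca
The loop of H2AC8 and H2BC21 was that of 15 genes, that of H4C8 of 4 genes and that of H2BC5 of 4 genes. In H2AC8 (chromosome 6) the model ended 51 bases after the loop. In H2BC21 (chromosome 1) it ran on for 1729 bases, and 19 members had a model that went at least 200 bases past the loop. Those 19 genes held 61.7% of all histone counts over the 24 libraries.

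Several libraries stood apart or went against their labels. The libraries labelled LNCaP parental Acetalax 3, LNCaP parental control 2 and PC3 CE Acetalax 1 differed from the others of their groups, with the chi-square over degrees of freedom of their replicate pairs at 164 to 292 against 3.57 to 34.4 for every other pair. VEGFA, a hypoxia target, was at 76.25 TPM in LNCaP parental Acetalax 3 and 53.87 TPM in LNCaP parental control 2, against 512.52 to 746.1 TPM in the other 4 LNCaP parental libraries, and at 228.22 TPM in PC3 CE Acetalax 1 against 41.73 to 48.54 TPM in the other 5 PC3 CE libraries. The summed TPM of 11 prostate epithelial markers was 10.53 to 15.54 in the libraries labelled LNCaP CE, against 5487 to 8974 in LNCaP parental, and 50.35 to 74.85 in those labelled PC3 CE, against 1457 to 1963 in PC3 parental. None of the 11 was at 0 in a whole CE group. The 5 fibroblast markers summed to 537 to 572 TPM in LNCaP CE and to 1863 to 2270 TPM in PC3 CE, against 8.67 to 52.29 TPM in parental libraries. Over 19231 features, the mean log2(TPM + 1) of LNCaP CE control correlated with that of PC3 CE control at a Pearson r of 0.947 and with that of LNCaP parental control at 0.793, which is a description across genes. Results that rest on these libraries are given with and without them, as counts where many genes are involved. Totals were 40160832 to 57728014 expected counts a library.

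Most histone genes were seen at low counts. In at least 1 library, 54 of the 66 members reached 10 counts, 19 did so in all 24 libraries, and 4 were at 0 throughout. Of the classes, 5 of 6 H1, 13 of 16 H2A, 15 of 17 H2B, 11 of 13 H3 and 10 of 14 H4 genes reached 10 counts. The 6 genes H4C8, H2BC21, H1-2, H2AC6, H2BC12 and H2AC19 held 68.0% of all histone counts. Of the members' values, 31.1% were not whole numbers; RSEM divides reads among near-identical copies. H3C14 and H3C15 had the same values in every library, and how reads were split between H2AC18 and H2AC19, between H4C14 and H4C15 and among the H2B genes is uncertain.

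Histone transcripts took up at most 0.106% of counts in any library, and most parental and CE libraries were far apart. The 66 genes held 0.00798%, 0.00741% and 0.00768% of counts in LNCaP CE Acetalax and 0.00702%, 0.00690% and 0.00691% in LNCaP CE control. LNCaP parental Acetalax libraries held 0.106%, 0.0828% and 0.0493%, and LNCaP parental controls 0.0899%, 0.0409% and 0.0918%. No CE library of LNCaP came near a parental one. In PC3, CE Acetalax libraries held 0.0353%, 0.0142% and 0.0148%, against 0.0130%, 0.0126% and 0.0126% in CE controls. PC3 parental Acetalax libraries held 0.0814%, 0.0798% and 0.0737%, against 0.0491%, 0.0497% and 0.0493% in PC3 parental controls. By share of counts, all 12 CE libraries lay below all 12 parental libraries, and the 3 PC3 parental Acetalax libraries lay above their 3 controls. By summed TPM the CE and parental libraries overlapped, with PC3 CE Acetalax 1 at 882 TPM and LNCaP parental control 2 at 869 TPM. The lowest LNCaP parental value of each group belonged to the library that stood apart.

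**Figure D1:**
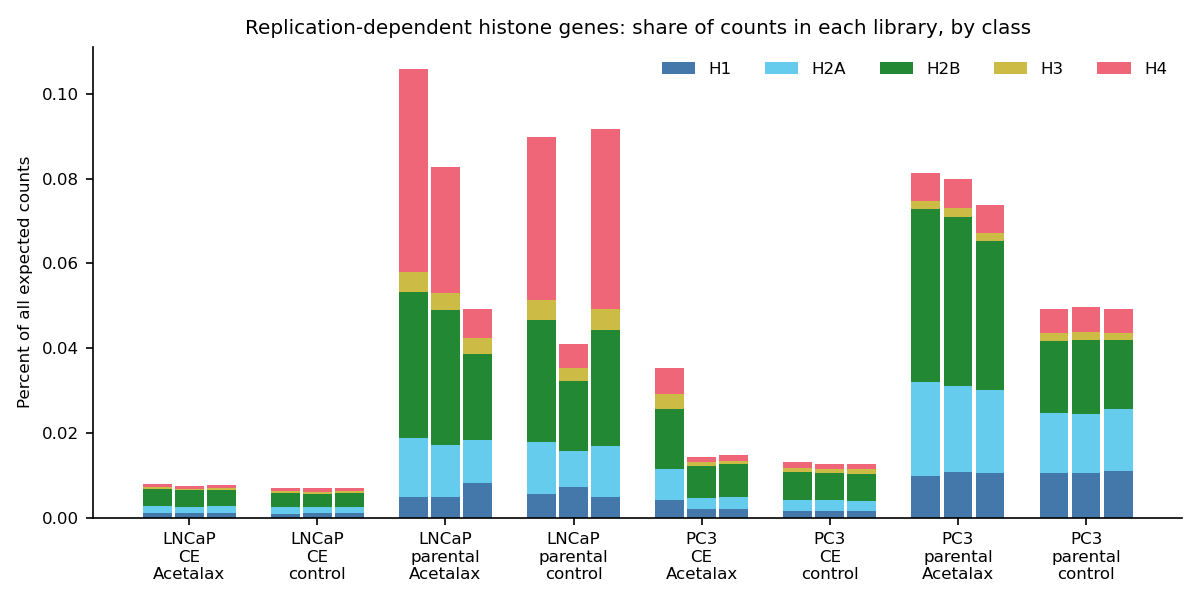
Percent of all expected counts held by the 66 histone genes in each of 24 libraries (1 bar each, replicates 1 to 3 from left to right), split by histone class. The 3 PC3 parental Acetalax bars exceed the 3 control bars mostly in their green H2B part and also in H2A, and H4 is a large part of the 4 tall LNCaP parental bars.

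In PC3 parental cells, H2B genes made up 50.2%, 49.8% and 47.7% of histone counts with Acetalax, against 34.7%, 35.0% and 32.9% in controls. H2B genes held 0.0386 ± 0.00301% of all counts with Acetalax and 0.0169 ± 0.000604% in controls, and H2A genes 0.0207 ± 0.00131% with Acetalax and 0.0143 ± 0.000399% in controls, with no overlap in either class. The H1 genes held 0.0104 ± 0.000416% of all counts with Acetalax and 0.0107 ± 0.000231% in controls (SD, n = 3 each), so their share differed by less than the spread. H4 genes held 0.00659 ± 0.000214% with Acetalax and 0.00570 ± 0.000196% in controls, and H3 genes 0.00196 ± 0.0000732% with Acetalax and 0.00181 ± 0.0000994% in controls. In LNCaP parental libraries the H4 class ranged widest, at 14.1% to 45.2% of histone counts with Acetalax and 13.7% to 46.4% in controls. H4C8 held 91.8%, 86.9% and 33.7% of the H4 counts with Acetalax, against 89.3%, 37.6% and 89.9% in controls, with the low share of each group in the library that stood apart.

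In PC3 parental cells, 4 h of Acetalax raised some H2A and H2B transcripts and a few H3 transcripts of low count. No H1 or H4 transcript passed the test with all libraries. Once PC3 CE Acetalax 1 was left out, 1 H1 and 3 H4 genes were higher and 1 H4 gene was lower. The higher H4C14 and the lower H4C15 are among them, and the split of reads between these copies is uncertain. Of 45 members tested, 10 rose and none fell, where 7.8% of all 20049 features tested were called (3.49% higher and 4.31% lower). The median log2 fold change was 0.86 over the tested members and 0.00 over all features. In 27 members (60%) all 3 Acetalax libraries lay above all 3 controls in TPM, against 15.9% of all features, and in none did all 3 lie below. The calls were 3 of 11 H2A, 4 of 13 H2B, 3 of 8 H3, 0 of 4 H1 and 0 of 9 H4 genes. H3C14 and H3C15, whose values are identical, are 2 of the 3 H3 calls and do not count as separate evidence. Fitted on only the 2 groups compared, 23 members were called, 22 of them higher, where 27% of all features were called. Leaving out PC3 CE Acetalax 1, which shares the estimate of the spread, gave 25 called, 23 higher and 2 lower, where 27.3% of all features were called. In that fit H1-4 (1.04, adjusted p = 0.0302), H4C5 (1.21, adjusted p = 3.4e-05), H4C9 (1.55, adjusted p = 0.00488) and H4C14 (0.86, adjusted p = 0.00375) were higher, H4C15 (-0.74, adjusted p = 0.0456) and H3C6 (-0.34, adjusted p = 0.0399) were lower, and no difference between classes was tested. Leaving out any 1 of the 6 libraries compared left 3 to 7 calls.

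H2AC8, a core H2A gene on chromosome 6, was at 50.56, 45.98 and 40.19 TPM with Acetalax, against 5.85, 4.57 and 6.53 TPM in controls. Its groups were far apart, and the log2 fold change was 2.97 ± 0.47 (SE, adjusted p = 0.00369). H2AC19, on chromosome 1, was at 249.67, 222.22 and 195.81 TPM with Acetalax, against 104.39, 73.85 and 86 TPM in controls. It rose by 1.31 ± 0.31 (adjusted p = 0.0268), and its near-identical copy H2AC18 was at 58.31, 56.41 and 47.53 TPM with Acetalax, against 5.96, 19.3 and 35.42 TPM in controls, with a log2 fold change of 1.37 ± 0.76 that was not called (adjusted p = 0.353). H2AC11 rose by 1.36 ± 0.34 (adjusted p = 0.0318). H2AC6, the other abundant H2A gene, was at 121.21, 108.96 and 120.39 TPM with Acetalax, against 111.93, 110.65 and 110.47 TPM in controls, a log2 fold change of 0.10 ± 0.28 (adjusted p = 0.921).

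Among the H2B genes, H2BC21 was at 101.38, 92.07 and 82.96 TPM with Acetalax, against 20.43, 21.23 and 16.56 TPM in controls. All 3 Acetalax libraries stood well above the controls, and the gene rose by 2.27 ± 0.40 (adjusted p = 0.006). H2BC18 was at 54.6, 49.99 and 46.76 TPM with Acetalax, against 13.96, 13.78 and 10.73 TPM in controls, a rise of 2.10 ± 0.58 (adjusted p = 0.0482). H2BC7 rose by 2.62 ± 0.63 (adjusted p = 0.0262) and H2BC11 by 1.41 ± 0.21 (adjusted p = 0.00262). H2BC12, the H2B gene with the highest mean TPM of the 24 libraries, was at 202.14, 211.38 and 227.41 TPM with Acetalax, against 202.73, 181.01 and 221.47 TPM in controls (log2 fold change 0.03 ± 0.08, adjusted p = 0.902). H2AC8, H2BC21 and H2BC11 were past the threshold under all 15 alternatives run for them, with adjusted p up to 0.0249 for H2AC8, 0.0312 for H2BC21 and 0.0173 for H2BC11. Each of the other 7 called genes missed the threshold under at least 1 alternative, with adjusted p up to 0.162.

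**Figure D2:**
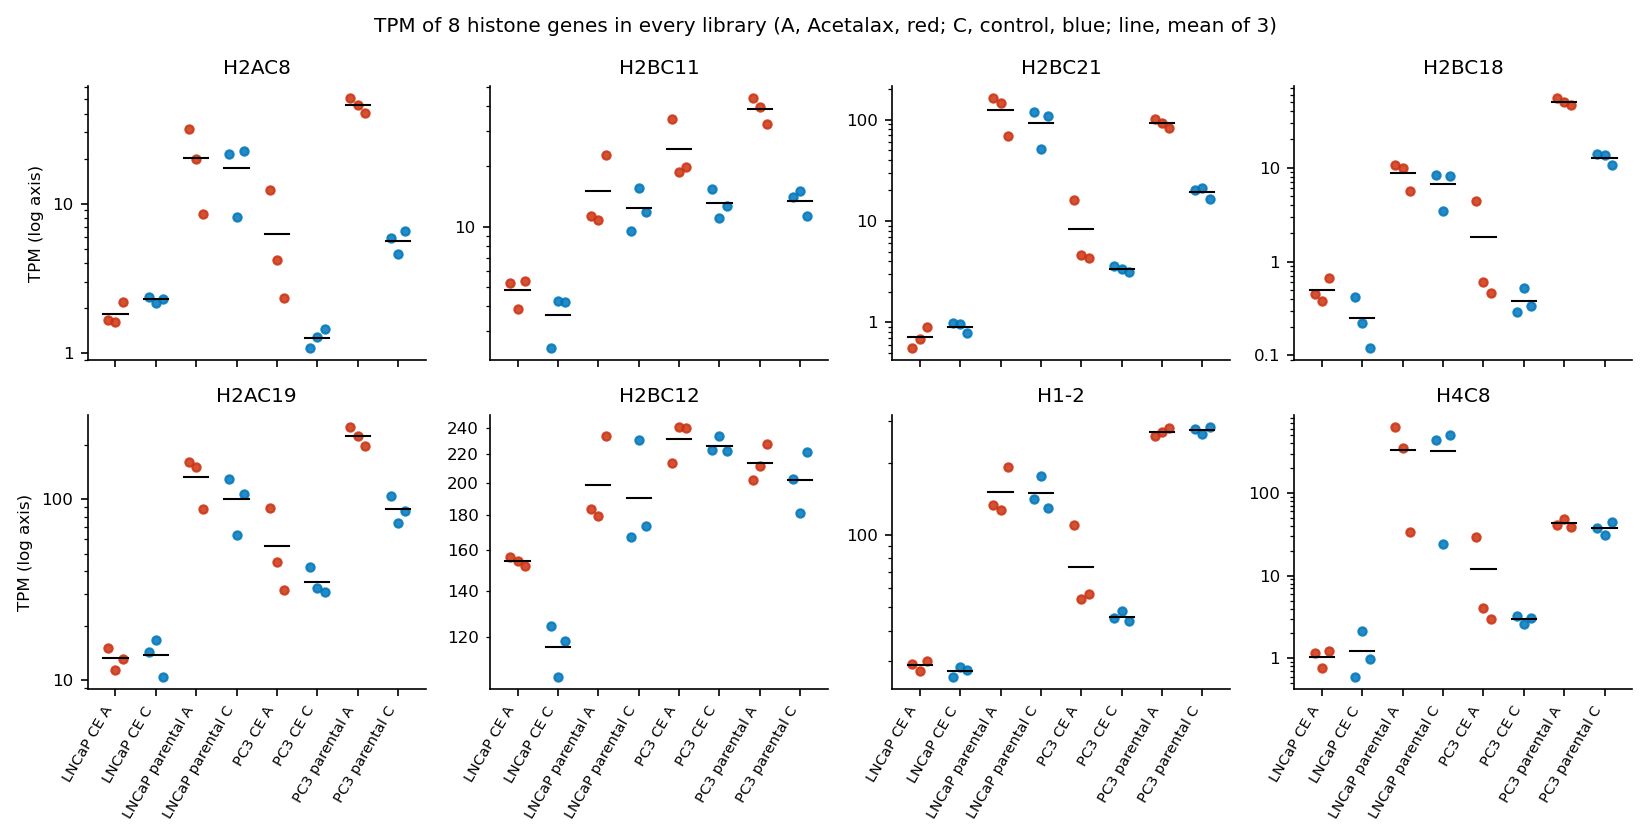
TPM of 8 histone genes in every library on log axes (points, 1 library each; line, mean of 3; A, Acetalax in red; C, control in blue). H2AC8, H2BC11, H2BC21, H2BC18 and H2AC19 lie higher with Acetalax in PC3 parental cells, while H2BC12, H1-2 and H4C8 overlap their controls there.

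H2BC5, picked after its values were seen, shows how the scale matters. It was at 142.69, 133.31 and 122.49 TPM with Acetalax, against 60.96, 57.75 and 55.36 TPM in controls, yet its expected counts were 1775, 1589 and 1576 with Acetalax, against 938, 931 and 989 in controls. The effective length implied by count and TPM was 403, 416 and 433 bases with Acetalax, against 554, 609 and 579 bases in controls. GENCODE 29 has 2 models of H2BC5, one of 496 bases that holds the stem-loop printed above and one of 789 bases that does not, and how reads were split between the models was not tested. Its log2 fold change in counts was 0.75 when PC3 CE Acetalax 1 was left out (adjusted p = 1.05e-05), and was not called with all 12 PC3 libraries.

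Of the H3 genes, H3C4 had 24.5, 44.4 and 12.2 expected counts with Acetalax, against 5.11, 0 and 0 in controls, and rose by 3.90 ± 0.98 (adjusted p = 0.0328), with few counts behind the control level. H3C14 and H3C15, whose values are identical, rose by 1.74 ± 0.43 (adjusted p = 0.0298). Each had 79.4 summed counts with Acetalax, against 23.1 in controls. The abundant H3C10 was at 8.74, 9.84 and 8.63 TPM with Acetalax, against 7.05, 6.71 and 6.79 TPM in controls, so that the groups did not overlap, but its log2 fold change of 0.41 ± 0.20 was not called (adjusted p = 0.282). H3C6 had a log2 fold change of -0.34 ± 0.60 (adjusted p = 0.847).

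The linker histone H1-2 was at 259.99, 271 and 280.34 TPM with Acetalax, against 278.59, 265.07 and 282.51 TPM in controls, and its groups overlapped (log2 fold change -0.04 ± 0.22, adjusted p = 0.974). H1-4 was at 5.08, 4.8 and 2.55 TPM with Acetalax, against 2.2, 2.06 and 1.74 TPM in controls (1.04 ± 0.68, adjusted p = 0.454). Of the H4 genes, H4C8 was at 40.6, 49.01 and 38.96 TPM with Acetalax, against 37.71, 31.05 and 44.96 TPM in controls (-0.03 ± 0.57, adjusted p = 1). H4C14 had a log2 fold change of 0.86 ± 0.63 (adjusted p = 0.511).

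Values of head-to-head H2A and H2B partners are set side by side, with no test of the difference between partners. With starts within 500 bases of each other and on opposite strands, GENCODE 29 gives 11 pairs of members. H2BC11 and H2AC11, whose starts lie 292 bases apart, both rose in PC3 parental cells. H2BC21 and H2AC20, 323 bases apart, were not both called: H2AC20 was at 2.3, 1.02 and 0.89 TPM with Acetalax, against 0.57, 1.51 and 0.52 TPM in controls, with a log2 fold change of 0.62 (adjusted p = 0.574). For H2BC8 and H2AC8, 283 bases apart, the log2 fold changes were 1.17 for H2BC8 (adjusted p = 0.127, and 2.31e-07 without PC3 CE Acetalax 1) and 2.97 for H2AC8. The RefSeq promoters of H2BC11 and H2BC21, from 250 bases before to 50 after the start, are shown because both genes rose. In each, the octamer ATTTGCAT, CCAAT and TATAAA are in capitals on either strand.
H2BC11, GRCh38.p14 chr6:27132746-27133045, minus strand: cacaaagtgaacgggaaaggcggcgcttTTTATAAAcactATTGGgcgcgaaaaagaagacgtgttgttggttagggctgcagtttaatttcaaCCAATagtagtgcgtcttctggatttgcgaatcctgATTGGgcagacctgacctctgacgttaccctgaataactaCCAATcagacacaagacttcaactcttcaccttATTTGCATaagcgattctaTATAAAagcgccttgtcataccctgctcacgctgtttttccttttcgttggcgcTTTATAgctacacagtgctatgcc
H2BC21, GRCh38.p14 chr1:149886633-149886932, minus strand: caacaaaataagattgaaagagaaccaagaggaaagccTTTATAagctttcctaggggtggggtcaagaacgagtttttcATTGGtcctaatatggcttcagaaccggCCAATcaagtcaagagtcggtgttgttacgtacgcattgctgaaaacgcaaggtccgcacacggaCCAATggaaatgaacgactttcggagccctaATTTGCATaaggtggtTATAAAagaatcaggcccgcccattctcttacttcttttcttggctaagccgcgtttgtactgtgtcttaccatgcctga
The octamer, which the POU factor OCT1 (POU2F1) binds in H2B promoters, stood in 78.9% of 19 H2B promoter entries and 73.3% of 15 H2A entries, against 1.77% of 35116 RefSeq promoters of that length. CCAAT stood in 86.2% of the 65 entries that matched 61 members, against 34.6% of all, and TATAAA in 67.7%, against 11.5%. The H1 box AAACACA stood in all 6 H1 promoters, against 5.64% of all. The promoter of H2BC12, whose level did not pass the test, held the octamer, CCAAT and TATAAA as those of H2BC11 and H2BC21 did. A match describes these letters only, and windows of paired genes overlap.

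In LNCaP parental cells no member passed the test: 0 of 44 tested with edgeR, where 8.45% of all 19393 features were called (4.04% higher and 4.41% lower), with 3 members at an unadjusted p under 0.05. DESeq2 called 1 and limma on log2(TPM + 1) called 3. The median log2 fold change was 0.04 over members and -0.01 over all features. In 2 members all Acetalax libraries lay above all controls (5.79% of all features) and in 2 all lay below (13.7%). H4C8 was at 625.15, 348.21 and 33.71 TPM with Acetalax, against 442.47, 24.32 and 508.55 TPM in controls. Its low value in each group was that of the library that stood apart, and its log2 fold change was 0.01 ± 0.94. H2BC21 was at 161.41, 145.9 and 68.24 TPM with Acetalax, against 117.54, 51.15 and 109.36 TPM in controls (0.51 ± 0.30, adjusted p = 0.394). H2AC8 was at 31.78, 19.97 and 8.53 TPM with Acetalax, against 21.53, 8.08 and 22.41 TPM in controls, and again the lowest library of each group was the one that stood apart. H1-2 was highest in those libraries, at 193.31 TPM against 134.05 and 127.95 TPM with Acetalax, and at 176.68 TPM against 141.97 and 130.23 TPM in controls.

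Without those libraries, 4 LNCaP parental members were called, where 26.6% of all features were: H2BC21 (0.53, adjusted p = 5.92e-05), H2AC19 (0.40) and H2AC6 (0.25) rose and H3C4 (-2.74) fell. The ratio of mean histone shares, Acetalax over control, was 1.07 with all 6 libraries, but 0.873 without control replicate 2 and 0.890 without Acetalax replicate 1, on the other side of 1. The responses of both lines were compared directly in the fit of 24 libraries. The LNCaP response was lower than the PC3 response in 4 of 49 members and higher in none, where 5.05% of all features were called and 1.9% were lower. These were H2AC8 (-2.76 ± 0.63, adjusted p = 0.0118), H3C4 (-5.37 ± 1.55, adjusted p = 0.0492) and the identical pair H3C14 and H3C15 (-2.62 ± 0.59, adjusted p = 0.00997). H2BC21 differed by -1.75 ± 0.52 (adjusted p = 0.0578). Without the libraries that stood apart, 16 members were lower and none higher, where 19.3% of all features were called, among them H2BC21 (adjusted p = 1.53e-09), H2BC18, H2BC7 and H2BC11.

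In PC3 CE cells Acetalax raised some histone transcripts, with sizes that depended on 1 library and calls that depended on every control. Of 45 members, 8 rose and none fell, where 8.15% of all features were called and 4.67% rose. The median log2 fold change was 0.76 over members (0.72 with groups at 0 set to their bound) and 0.01 over all features. In 12 members all Acetalax libraries lay above all controls, against 10.7% of all features (all below: 21.2% of all features). H2BC5 was at 66.14, 12.06 and 10.49 TPM with Acetalax, against 8.08, 6.83 and 6.92 TPM in controls, a rise of 2.15 ± 0.58 (adjusted p = 0.0436). Replicate 1, the library that stood apart, was several times the other Acetalax libraries, and those still lay above the controls. H2AC8 was at 12.36, 4.18 and 2.35 TPM with Acetalax, against 1.08, 1.27 and 1.45 TPM in controls, a rise of 2.37 ± 0.54 (adjusted p = 0.0239). H2BC11 was at 34.61, 18.8 and 19.96 TPM with Acetalax, against 15.44, 11.08 and 12.72 TPM in controls, a rise of 1.01 ± 0.21 (adjusted p = 0.0146).

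The other called genes were H2BC6 (3.52 ± 0.94), H4C5 (2.61 ± 0.67), H2BC8 (1.84 ± 0.47), H2BC15 (1.24 ± 0.32) and H3C4. H3C4 had 52 summed counts with Acetalax against 1 in controls, a ratio of 47.9 with an exact counting interval of 8.23 to 1929. Without PC3 CE Acetalax 1, 10 members were called, all higher, where 16.4% of all features were called, and sizes were smaller: H2BC5 0.74, H2AC8 1.35, H2BC11 0.77 and H2BC8 0.82. Without any 1 of the 3 controls 0 members were called, and without Acetalax replicate 2 or 3 there were 16 or 19. Fitted on these 2 groups alone, 0 members were called, where 1.29% of all features were. The ratio of mean shares, Acetalax over control, was 1.68, and 1.14 without replicate 1. No difference between the CE and the parental response of PC3 passed the test (0 of 45 members with edgeR, where 8.03% of all features were called, 4.59% higher and 3.44% lower, with 5 at an unadjusted p under 0.05, and DESeq2 calling 1). Without PC3 CE Acetalax 1 that difference was called in 15 members, 12 of them lower in CE, where 22.5% of all features were called, led by H3C13 (-3.71), H2AC17 (-2.47), H2BC7 (-2.33) and H2BC21 (-1.80).

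In LNCaP CE cells no member passed the test (0 of 44 with edgeR, where 7.4% of all features were called (3.34% higher and 4.06% lower), with 2 members at an unadjusted p under 0.05, and 0 with DESeq2). H2BC12 was at 156.76, 154.39 and 151.67 TPM with Acetalax, against 124.37, 105.3 and 118.38 TPM in controls. Those groups did not overlap, and the log2 fold change was 0.46 ± 0.20 (adjusted p = 0.227). With the 2 LNCaP parental libraries that stood apart left out, 7 members were called, where 34.1% of all features were, H2BC12 among them at 0.46 (adjusted p = 1.67e-05). In 3 members all Acetalax libraries lay above all controls (10.4% of all features) and in 3 all lay below (34.3%). The difference of the CE and the parental response of LNCaP was called in 0 of 44 members with edgeR (1.28% of all features, 0.583% higher and 0.701% lower), with 2 at an unadjusted p under 0.05 and 0 with DESeq2.

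The CE cells held far fewer histone transcripts than the parental cells of both lines. In PC3, 25 of 45 members were lower in CE control than in parental control and 3 were higher, in a comparison in which 77.5% of all features were called and 39% were lower. Over all features, 43% had all 3 CE control libraries above all 3 parental controls in TPM and 39.6% had all 3 below. The median log2 fold change was -1.78 over members and -0.01 over all features. Without PC3 CE Acetalax 1, 29 of 47 members were lower and 3 higher, with medians of -1.78 over members and -0.03 over all features. The share of all features called in that fit is not given here. In LNCaP, 35 of 44 were lower and 1 higher, where 75.3% of all features were called and 39.3% were lower, with medians of -2.78 over members and -0.06 over all features. Without LNCaP parental control 2 and LNCaP parental Acetalax 3, 35 of 44 were lower and 2 higher, where 84.8% of all features were called, with medians of -3.08 over members and -0.09 over all features. All 12 CE libraries are those in which the summed prostate epithelial markers were low and the summed fibroblast markers high. Single markers did not all go that way. In PC3, 7 of 10 tested prostate markers were lower and 3 higher in CE control, and 4 of 5 fibroblast markers were higher and 1 lower. In LNCaP, 11 of 11 prostate markers were lower, and 4 of 5 fibroblast markers were higher and 0 lower. The part of these markers in the result was not tested.

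Linker histones fell in both lines: 4 of 4 tested in PC3 and 3 of 3 in LNCaP, against the shares of all features that were lower given above. H1-2 was at 45.11, 48.37 and 43.88 TPM in PC3 CE control, against 278.59, 265.07 and 282.51 TPM in parental control (log2 fold change -2.71 ± 0.24, adjusted p = 6.83e-07). In LNCaP it was at 25.68, 28.06 and 27.26 TPM in CE control, against 141.97, 176.68 and 130.23 TPM in parental control (-2.39 ± 0.23, adjusted p = 2.6e-06). The groups were far apart in both lines. H1-6, a testis-type linker histone, had 0 counts in the 3 controls of either CE line, and was at least 15.6-fold lower in PC3 CE and at least 7.00-fold lower in LNCaP CE, against a limit of 3 counts over the group. H1-4 fell by 3.57 in PC3 and by 1.85 in LNCaP on the log2 scale.

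Of the H2A genes, 3 of 11 fell and 1 rose in PC3, a share lower than the 39% of all features, and 8 of 11 fell in LNCaP, where 39.3% of all features were lower. H2AC6 was at 8.29, 6.1 and 6.26 TPM in PC3 CE control, against 111.93, 110.65 and 110.47 TPM in parental control (-4.10 ± 0.32, adjusted p = 2.16e-07). In LNCaP it was at 4.53, 4.67 and 4.44 TPM in CE control, against 51.43, 36.23 and 54.08 TPM in parental control (-3.31 ± 0.16, adjusted p = 8.94e-09). H2AC20 ran the other way in PC3, with 3.3, 3.58 and 2.52 TPM in CE control, against 0.57, 1.51 and 0.52 TPM in parental control (1.68 ± 0.49, adjusted p = 0.00776), while its head-to-head neighbour H2BC21 fell by 2.59. In LNCaP, H2AC20 had a log2 fold change of 0.99 that was not called (adjusted p = 0.13), beside -6.55 ± 0.40 for H2BC21 (adjusted p = 5.77e-08). Without the LNCaP libraries that stood apart, H2AC20 was called at 1.64 and H2BC21 was at -6.85.

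H2B genes were lower in 11 of 13 tests in PC3 and in 12 of 13 in LNCaP, against the shares of all features that were lower given above. H2BC18 was at 0.29, 0.52 and 0.34 TPM in PC3 CE control, against 13.96, 13.78 and 10.73 TPM in parental control (-5.11 ± 0.74, adjusted p = 5.62e-05), and H2BC21 at 3.63, 3.35 and 3.14 TPM in PC3 CE control, against 20.43, 21.23 and 16.56 TPM. In LNCaP, H2BC21 was at 0.98, 0.96 and 0.79 TPM in CE control, against 117.54, 51.15 and 109.36 TPM in parental control. H2BC12 was the abundant exception: 222.71, 233.61 and 222.45 TPM in PC3 CE control, against 202.73, 181.01 and 221.47 TPM in parental control (0.00 ± 0.08, adjusted p = 0.964). In LNCaP it was at 124.37, 105.3 and 118.38 TPM in CE control, against 167.41, 230.31 and 173.44 TPM, and fell by 0.65 (adjusted p = 0.0119). H2B genes made up 51.3 ± 0.826% of histone counts in PC3 CE control, against 34.2 ± 1.12% in parental control (SD, n = 3 each).

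H2BC9 was the only one of the 44 members tested in LNCaP that was called higher with all libraries. It had 56, 67 and 87 counts in LNCaP CE control and 53, 70 and 76 counts in LNCaP CE Acetalax, against 0 counts in all 6 LNCaP parental libraries, at least 70.0-fold higher in CE control than in parental control. In PC3 it was present throughout, with 55, 49 and 62 counts in CE control, against 119, 116 and 94 counts in parental control, and fell by 1.20. H1-3, too low in count to be tested within LNCaP, had 7, 2 and 5 counts in LNCaP CE control and 5, 2 and 3 in LNCaP CE Acetalax, against 0 in all 6 LNCaP parental libraries, and 3, 1 and 2 counts in PC3 CE control, against 87, 83 and 57 in PC3 parental control. In both genes all 6 libraries labelled LNCaP CE held counts and all 6 LNCaP parental libraries held none.

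In PC3, with all libraries, the shares of H3 and H4 genes that fell were near the share of all features that did. There, 3 of 8 H3 genes fell and the identical pair H3C14 and H3C15 rose by 1.38 ± 0.43 (adjusted p = 0.0117), and 4 of 9 H4 genes fell, where 39% of all features were lower. Without PC3 CE Acetalax 1, 4 of 8 H3 genes fell and 2 rose in PC3, and 6 of 9 H4 genes fell. The share of all features that fell in that fit is not given here. In that fit the median log2 fold change in PC3 was -1.32 over H3 genes and -2.41 over H4 genes, against -0.03 over all features. In LNCaP, 7 of 9 H3 genes and 5 of 8 H4 genes fell, where 39.3% of all features were lower. H4C8 showed the largest fitted fall of any member in LNCaP, to 0.6, 2.14 and 0.99 TPM in CE control, against 442.47, 24.32 and 508.55 TPM in parental control (-8.05 ± 1.34, adjusted p = 0.000218, and -8.64 without the LNCaP libraries that stood apart). In PC3 it fell to 3.21, 2.57 and 3.1 TPM in CE control, against 37.71, 31.05 and 44.96 TPM in parental control (-3.54 ± 0.65, adjusted p = 0.000368). H3C10 fell to 3.47, 2.59 and 2.62 TPM in LNCaP CE control, against 26.65, 24.02 and 28.93 TPM in parental control (-3.09 ± 0.14, adjusted p = 3.75e-09), but in PC3 was at 5.8, 6.9 and 7.03 TPM in CE control, against 7.05, 6.71 and 6.79 TPM (-0.15 ± 0.20, adjusted p = 0.517).

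**Figure D3:**
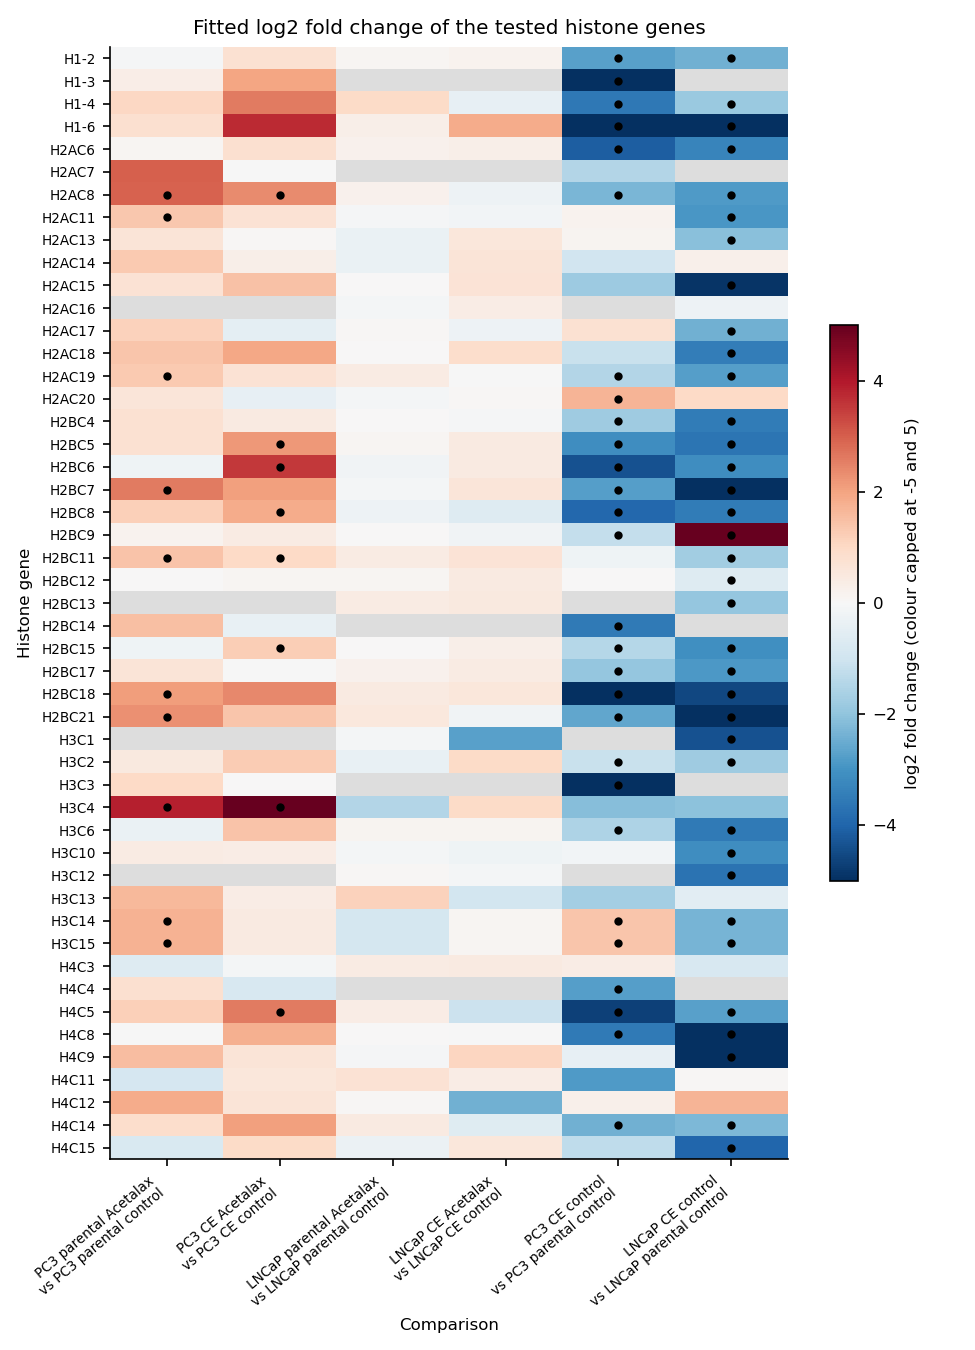
Fitted log2 fold change of each tested histone gene (rows, by class) in 6 comparisons (columns); black dots mark adjusted p under 0.05, grey cells were not tested, and colour stops at -5 and 5. Dots in the Acetalax columns are in PC3 alone, on H2A, H2B and H3 genes and H4C5, while uncalled H1 and H4 genes such as H1-4 (2.59) and H4C14 (2.04) are also red in PC3 CE, and the CE columns are mostly blue, with H2BC9 in LNCaP and H2AC20, H3C14 and H3C15 in PC3 as the called exceptions.

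The CE change itself differed between lines in 24 of 49 members, 20 lower and 4 higher in LNCaP. That is a smaller share than the 56.8% of all features that were called, and the median over all features was -0.13. H2BC21 (-3.98 ± 0.58, adjusted p = 5.82e-06), H3C10 (-2.97 ± 0.25, adjusted p = 2.2e-09) and H4C8 (-4.55 ± 1.35, adjusted p = 0.00689) fell further in LNCaP. Parental LNCaP and PC3 controls already differed: 17 of 49 members were higher and 6 lower in LNCaP, where 70.3% of all features were called (35.5% higher and 34.7% lower). Without the libraries that stood apart, 22 of 51 were higher and 10 lower, where 76.6% of all features were called, and the CE change differed in 31 of 51, 22 lower and 9 higher, where 66% were called. With all libraries, H4C8 was 3.14 ± 0.88 higher in LNCaP on the log2 scale, H2BC21 2.22 ± 0.38 and H3C10 1.92 ± 0.17 higher, while H1-2 differed by -0.91 and H2AC6 by -1.24. H2BC9 was at least 123-fold and H1-3 at least 84.7-fold lower in LNCaP, whose parental controls had 0 counts of either. Between CE controls, 4 members were higher and 14 lower in LNCaP of 49, where 41% of all features were called. In each of these counts the share of members called was below that of all features. The split of all features by direction is given only for the parental controls with all libraries, so the splits of members are descriptions.

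Genes that regulate, process and carry histones are given from lists chosen by role. Of 24 genes of histone transcription and transcript processing, 2 rose and 5 fell in PC3 parental cells with Acetalax, where 3.49% of all features rose and 4.31% fell. NPAT, the activator of the histone loci, was at 3.70 ± 0.446 TPM with Acetalax and 7.71 ± 1.49 TPM in controls (SD, n = 3 each), and fell by 1.19 ± 0.13 on the log2 scale (adjusted p = 0.00077). LSM10, a subunit of U7 snRNP, rose by 0.74 (adjusted p = 0.0036), and ZNF473, which binds U7 snRNP, fell by 0.59 (adjusted p = 0.00181). SLBP was at 29.3 ± 1.06 TPM with Acetalax and 28.5 ± 1.79 TPM in controls, and was not called. Of 13 chaperones, ASF1A and ATRX fell, by 0.62 and 0.36, and of 12 tested histone variants and 24 S-phase genes none was called with all libraries. Without PC3 CE Acetalax 1, 5 of 24 S-phase genes rose and 6 fell, and 1 of 13 variants rose. In that fit 4 processing genes rose and 8 fell, and 1 chaperone rose and 4 fell. The share of all features called in that fit is given above.

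In the other Acetalax comparisons 3 processing genes rose and 2 fell in LNCaP parental cells, 2 rose and 4 fell in PC3 CE cells, and 0 rose and 3 fell in LNCaP CE cells. Of all features, 8.45% were called in LNCaP parental, 8.15% in PC3 CE and 7.4% in LNCaP CE cells. Without the libraries that stood apart, 8 processing genes rose and 8 fell in LNCaP parental cells. In those fits 2 rose and 6 fell in PC3 CE cells, and 6 rose and 7 fell in LNCaP CE cells. POU2F1, the octamer-binding factor, rose by 0.91 ± 0.13 (adjusted p = 0.00176) in LNCaP parental cells and by 0.66 ± 0.09 (adjusted p = 0.00234) in PC3 CE cells. ZNF473 fell by 0.85 in PC3 CE and by 0.99 in LNCaP CE cells. Of 24 S-phase genes, 1 fell in PC3 CE cells with all libraries, and none was called in LNCaP parental or LNCaP CE cells. Without the libraries that stood apart, 1 S-phase gene rose and 16 fell in LNCaP parental cells. In those fits 6 fell in PC3 CE cells, and 6 rose and 6 fell in LNCaP CE cells. Histone variants, most of which are made outside S phase from polyadenylated transcripts, had 0 calls of 12 in all 4 Acetalax comparisons with all libraries. Without the libraries that stood apart 13 variants were tested. Of these, 1 rose in PC3 parental cells, 1 rose and 2 fell in LNCaP parental, 2 rose in PC3 CE and 6 rose in LNCaP CE cells. The shares of all features called in those fits are given above.

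In CE against parental controls the S-phase genes went up while the histone genes went down. All 24 S-phase genes rose in PC3, with a median log2 fold change of 3.34, and 17 of 24 rose in LNCaP, with a median of 1.41, and none fell in either. Of all features, 38.5% rose in PC3 and 36% in LNCaP. Without LNCaP parental control 2 and Acetalax 3, 24 of 24 rose in LNCaP, with a median of 1.95. SLBP rose by 1.78 ± 0.24 (adjusted p = 2.49e-05) in PC3 and by 0.72 ± 0.25 (adjusted p = 0.0216) in LNCaP. CCNE1, cyclin E1, rose by 3.25 in PC3 and by 2.15 in LNCaP, and ERI1, an exonuclease of histone transcript ends, by 2.28 in PC3 and by 0.89 in LNCaP. Chaperones rose in 11 of 13 cases in PC3 and in 9 of 13 in LNCaP, with NASP up by 2.36 in PC3 and by 1.77 in LNCaP. Of 12 tested variants, 7 rose and 3 fell in PC3, where 77.5% of all features were called and H2AZ1 rose by 2.12. In LNCaP, where 75.3% were called, 1 rose and 6 fell, and H2AJ fell by 7.53 ± 0.17 (adjusted p = 3.86e-11), to 2.51 ± 0.329 TPM in CE control, against 505.9 ± 20.6 TPM in parental control. Without LNCaP parental control 2 and Acetalax 3, 4 of 13 variants rose and 7 fell in LNCaP, and 12 of 13 chaperones rose and 1 fell. The share of all features called in that fit is given above.

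The 24 S-phase genes summed to 1894 TPM in LNCaP parental Acetalax 3, against 690.56 and 720.38 TPM in the other Acetalax libraries, and to 1995 TPM in LNCaP parental control 2, against 859 and 915 TPM in the other controls. Those are the libraries with the lower histone sums. In PC3 CE Acetalax 1 the S-phase genes summed to 675 TPM, against 1844 and 1913 TPM in replicates 2 and 3, and that library had the higher histone sum. In PC3 parental cells, S-phase sums were 347 to 368 TPM with Acetalax and 360 to 373 TPM in controls, overlapping, while histone sums were apart. The part of S-phase and VEGFA levels in the histone results was not tested.

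**Figure D4:**
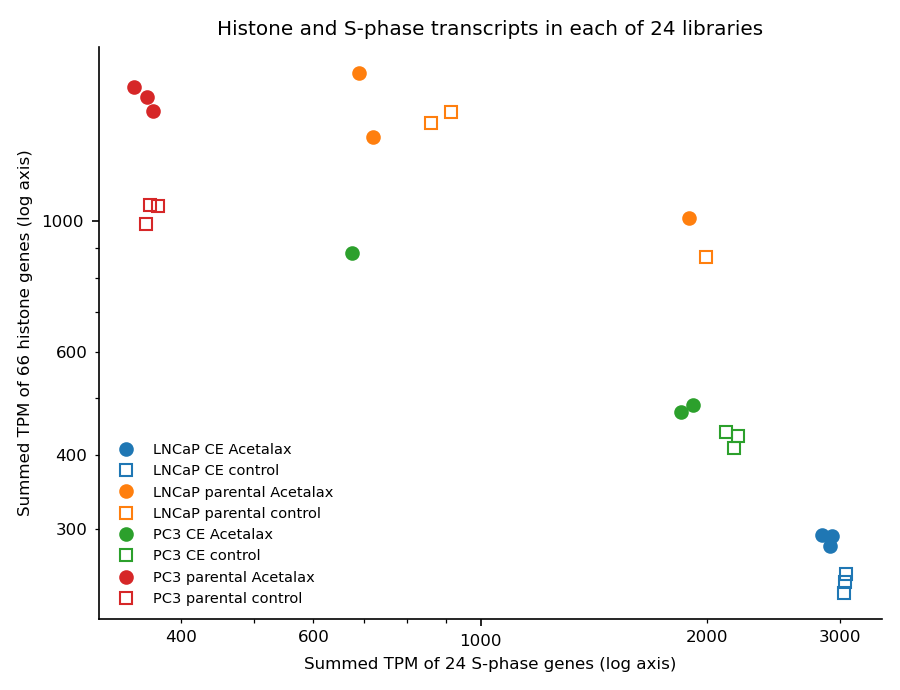
Summed TPM of the 66 histone genes against the summed TPM of 24 S-phase genes in each library, both on log axes (circles, Acetalax; squares, control; 1 colour per cell kind). LNCaP CE libraries lie lowest in histone and highest in S-phase sums, and PC3 parental Acetalax points lie above the control points with overlapping S-phase sums.

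The members were also grouped by the 3′ end of their transcript model. The shares of all features that rose or fell in each comparison are those given above with the members. In CE controls, genes whose model runs at least 200 bases past the stem-loop held 27.7 ± 0.118% of histone counts in LNCaP and 31.6 ± 0.451% in PC3, against 70.3 ± 14.9% in LNCaP parental control and 53.9 ± 1.60% in PC3 parental control (SD, n = 3 each). In LNCaP CE against parental control, 17 of the 18 such genes tested fell and 1 rose, with a median of -3.21. There 7 of 8 genes whose model ends near the loop fell, with a median of -2.78, and 10 of 17 genes with no loop in the model, with a median of -1.85. In PC3 CE against parental control the medians were close, at -1.98 for extended genes (12 of 18 fell and 2 rose), -1.78 for those ending near the loop (4 of 7 fell) and -1.75 for those with no loop (7 of 18 fell and 1 rose). For genes with no loop, the share that fell was near the share of all features that were lower in that comparison. In PC3 parental cells Acetalax raised 6 of 18 extended genes, 2 of 7 whose model ends near the loop and 2 of 18 with no loop in the model. The share held by genes with no loop in the model was 20.0%, 21.5% and 23.2% of histone counts with Acetalax, against 32.1%, 31.4% and 33.6% in controls. As a share of all counts, that same set was at 0.0163%, 0.0172% and 0.0171% with Acetalax, against 0.0158%, 0.0156% and 0.0166% in controls, and H1-2 and H2BC12 are its abundant members. No difference between these sets was tested, and the model's end shows where reads can be counted, not where transcripts end in these cells.

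**Figure D5:**
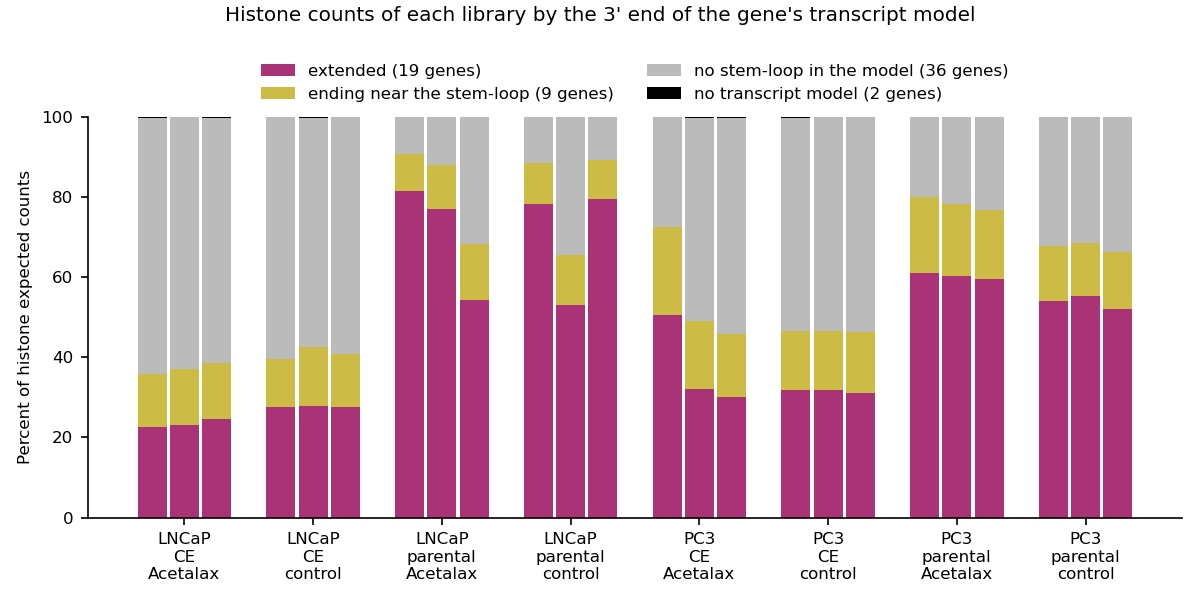
Percent of the histone counts of each library held by genes grouped by the 3′ end of their GENCODE 29 transcript model. Extended genes make up 59.6% to 61.2% in the PC3 parental Acetalax bars, 52.2% to 55.4% in the PC3 parental control bars, and a mean of 27.7% in LNCaP CE control and 31.6% in PC3 CE control bars.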

How the data were processed

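RNA of 24 libraries in 8 groups of 3 was measured. Per the labels' protocols, poly(A) RNA was enriched, made into directional libraries and read as paired ends. Per the submitters' processing notes, FastQC, STAR 2.7, RSEM and GRCh38 were used; which annotation release and strand option served for counting is not given in the sources used here. The authors deposited RSEM expected counts and TPM for 60660 features. Expected counts, of which 10.2% were not whole, were rounded. In each of the 2 tables, 1 column matched no sample and was not used.

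Tests used edgeR 4.0.16 (limma 3.58.1, R 4.3.3): the quasi-likelihood test with TMM scaling, filterByExpr at a minimum count of 10, and Benjamini-Hochberg adjustment over all features at 0.05. Each line was fitted on its 12 libraries, and comparisons between lines on all 24. Every adjusted p is from this test. A standard error is the fold change over the root of its F value. In simulated data for the PC3 parental comparison (19215 features), 96% of changes of 1 on the log2 scale and 100% of changes of 2 were recovered. Only features of higher count were changed there, every feature had the same spread, and no simulated library stood apart. The simulation therefore checks the procedure, and how many changes of members the real fits can recover was not tested. Alternatives were RLE scaling, no filter, DESeq2 1.42.0, limma on log2(TPM + 1) and log2(TPM + 0.1), a replicate block, smaller fits and libraries left out. Shares of counts are descriptions, since 3 against 3 cannot go below an exact permutation p of 0.1.

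The members and gene lists were chosen with earlier results of these data known. Named members were up to 10 called members a comparison with the largest log2 fold change, and the 2 members of each class with the highest mean TPM. Positions and transcripts are from GENCODE 29 on GRCh38, promoters from RefSeq (GRCh38.p14). Intervals and bounds for low counts cover counting error only.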

Additional observations from a re-analysis of the deposited data

Results flagged for a closer look

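The Acetalax response of parental LNCaP was lower than that of parental PC3 in 4 genes by an interaction term in edgeR's quasi-likelihood test over 24 libraries. The difference of log2 fold changes was -5.37 for H3C4, -2.76 for H2AC8 and -2.62 for the identical H3C14 and H3C15. The LNCaP estimates include the 2 libraries that stood apart, and without those libraries and PC3 CE Acetalax 1 the differences were -6.64 for H3C4, -2.75 for H2AC8 and -2.72 for H3C14 and H3C15.

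The change of CE against parental controls also differed between lines by the same kind of term. It was lower in LNCaP for H4C9 (-5.06), H4C8 (-4.55), H2BC21 (-3.98), H3C14 and H3C15 (-3.73), H2BC7 (-3.50), H3C10 (-2.97), H3C6 (-2.01), H2AC19 (-1.30) and H2BC12 (-0.68). It was higher in LNCaP for H1-3 (10.69), H2BC9 (10.39), H3C3 (7.75) and H2BC14 (4.88). H3C3 had 1 count in 1 LNCaP CE control library and 0 in the other LNCaP libraries, so no LNCaP change was measured for it; its call was lost with DESeq2 (adjusted p = 0.106) and without LNCaP CE control replicate 3 (adjusted p = 1.00). Without that replicate H2BC14 was at adjusted p = 0.0544. The values of H1-3, H2BC9 and H3C3 involve groups at 0 counts, so their size depends on the prior count and is no bound.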

How the results depend on the processing

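Among the recomputed values, 2876 kept their direction and side of the threshold, 139 lost and 83 gained a call, 133 moved and 2 changed direction. Those 2 are the LNCaP parental share ratio, 0.890 without LNCaP parental Acetalax replicate 1 and 0.873 without LNCaP parental control replicate 2.

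Without the libraries that stood apart, members called numbered 25 in PC3 parental, 4 in LNCaP parental and 7 in LNCaP CE cells with Acetalax, 15 for the PC3 and 3 for the LNCaP difference of CE and parental responses, 16 for the difference of parental responses between lines and 29 between CE controls. On only the groups compared they numbered 23 in PC3 parental, 0 in PC3 CE and 7 in LNCaP CE cells. DESeq2 called 13 in PC3 CE cells, 1 in LNCaP parental cells and 1 for the PC3 response difference. limma on log2(TPM + 1) called 2 in PC3 CE cells, 3 in LNCaP parental cells, 2 for the PC3 and 1 for the LNCaP response difference, and 11 for the difference of parental responses between lines; on log2(TPM + 0.1) it called 3 in PC3 CE cells. With no low-count filter the PC3 response difference gave 1. Outside the LNCaP parental comparison, same-numbered libraries did not deviate together (r of -0.06 to 0.0302). In the LNCaP parental comparison their r was -0.59 to 0.41. There r was 0.71 between Acetalax 3 and control 2, the libraries that stood apart, so pairing could not be judged. A replicate block moved 1 count by over 1.5 times, to 4 in PC3 CE cells with Acetalax. The causes were not tested. Here and above, a count of calls without a share of all features for its setting shows only how calls move. Such a count is not read as a result about the members.

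With each library left out in turn, Acetalax calls ranged over 3 to 7 in PC3 parental (7 without Acetalax replicate 3, 3 or 4 without any other), 0 to 19 in PC3 CE (10, 16 and 19 without Acetalax replicates 1, 2 and 3 in turn, 0 without any 1 control) and 0 to 0 in LNCaP parental and LNCaP CE cells. The response difference ranged over 0 to 15 in PC3 (15 without PC3 CE Acetalax replicate 1, 2 without replicate 2 or 3) and 0 to 0 in LNCaP. CE against parental calls ranged over 26 to 28 in PC3 and 35 to 37 in LNCaP, LNCaP against PC3 over 19 to 26 for parental and 14 to 18 for CE controls, the difference of parental responses over 3 to 6 (6 without LNCaP parental control replicate 2) and that of CE changes over 20 to 25. Acetalax over control share ratios ranged over 1.55 to 1.63 in PC3 parental, 0.873 to 1.27 in LNCaP parental, 1.14 to 1.96 in PC3 CE and 1.09 to 1.13 in LNCaP CE cells. CE over parental ratios ranged over 0.255 to 0.260 in PC3 and 0.0764 to 0.106 in LNCaP. By summed TPM the ratios were 1.19 for LNCaP CE Acetalax over control, 0.411 for PC3 CE over parental and 0.188 for LNCaP CE over parental. Without H4C8 the CE over parental ratio was 0.268 in PC3 and 0.139 in LNCaP, and without mitochondrial genes in the total the PC3 ratio was 0.252. Low counts limit most H3 and H4 genes, and poly(A) selection limits all of them.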
